A study of Rattus norvegicus with 31 samples.

Results

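The genes described are a fixed set of 56 genes of mitosis and cell division, from the cyclins and kinases that start mitosis to the proteins that separate the daughter cells. They were selected by symbol in the deposited count tables of rat liver, and 54 of the 56 had a row in both tables, out of 26312 rows in all. All 54 passed the filter on low counts, which kept 19904 genes. Anln and Hmmr, listed but not matched by symbol, were not analysed here. The livers came from 31 female Wistar (Crl:WI) rats that were gavaged daily for 28 days. The 8 controls received only the vehicle, an aqueous carboxymethyl-cellulose suspension medium. THI is thiacloprid (108 mg/kg bw/day, 4 rats), IMZ is imazalil (93 mg/kg bw/day, 4 rats) and CTD is clothianidin (288 mg/kg bw/day, 3 rats). The mixtures were THI + IMZ (54 and 46 mg/kg bw/day), THI + CTD (54 and 134 mg/kg bw/day) and IMZ + CTD (46 and 135 mg/kg bw/day), with 4 rats each. THI and CTD are neonicotinoid insecticides and IMZ is an imidazole fungicide. The CTD group had 3 rats because, at this dose, at least 1 rat was killed in moribund condition. Each liver gave 1 total RNA library, and the libraries held 31.8 M to 101.2 M counts.

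Most hepatocytes of an adult rat liver rest outside the cell cycle, and transcripts of mitotic genes are therefore scarce in the resting organ. When cells divide, the kinase Cdk1 binds cyclin B, drives entry into mitosis and is switched off when the anaphase-promoting complex, activated by Cdc20, marks cyclin B and securin for destruction. Many of these genes are transcribed late in the cycle. Their promoters often carry a cell cycle genes homology region (CHR), which is bound by the DREAM complex in resting cells and by the B-Myb-MuvB complex and Foxm1 in dividing cells, and CCAAT boxes bound by NF-Y.

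RefSeq promoter windows of the rat build GRCr8 (250 bases before to 50 after the annotated start) were found for 46 of the 54 genes by symbol, the others being Aurkb, Ccna2, Cdca2, Foxm1, Incenp, Racgap1, Tpx2 and Ube2c. The common CHR sequence TTTGAA and its known variant with a central CpG, TTCGAA, were searched on both strands, and at least 1 of them was present in 71.7% of the 46 windows, against 19.5% of all 27457 windows of the table. CCAAT, also on both strands, was present in 73.9% against 37.7%. Both kinds occurred together in 60.9% of the genes' windows and in 7.8% of all windows. A match describes letters and not a bound site. Windows of 150 bases (120 before to 30 after the start) are shown for 6 genes whose levels are followed below, because Cdk1, Plk1, Cdc20, Top2a and Mki67 hold both kinds of motif in this stretch and Ccnb1 holds only CCAAT. Capitals mark the motifs as read on either strand. In Mki67 a CHR and a CCAAT box on opposite strands overlap by 1 base.
Cdk1: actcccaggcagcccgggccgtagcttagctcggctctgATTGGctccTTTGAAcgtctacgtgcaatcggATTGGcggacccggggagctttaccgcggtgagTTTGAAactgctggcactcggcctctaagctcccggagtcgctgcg
Ccnb1: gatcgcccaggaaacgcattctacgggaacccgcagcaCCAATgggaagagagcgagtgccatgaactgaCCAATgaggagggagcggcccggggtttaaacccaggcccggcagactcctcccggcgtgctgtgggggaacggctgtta
Plk1: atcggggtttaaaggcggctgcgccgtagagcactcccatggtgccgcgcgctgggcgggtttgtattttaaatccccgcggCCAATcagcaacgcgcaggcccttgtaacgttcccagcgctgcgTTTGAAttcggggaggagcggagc
Cdc20: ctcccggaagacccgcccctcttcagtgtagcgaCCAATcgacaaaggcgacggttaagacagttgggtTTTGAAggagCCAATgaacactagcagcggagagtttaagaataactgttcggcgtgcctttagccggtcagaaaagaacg
Top2a: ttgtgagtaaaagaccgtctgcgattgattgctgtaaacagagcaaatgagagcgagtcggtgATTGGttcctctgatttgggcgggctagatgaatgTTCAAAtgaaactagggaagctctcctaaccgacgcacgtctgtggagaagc
Mki67: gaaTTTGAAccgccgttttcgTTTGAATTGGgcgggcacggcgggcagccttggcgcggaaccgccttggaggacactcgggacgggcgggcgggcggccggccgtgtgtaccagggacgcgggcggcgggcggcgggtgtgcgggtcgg
The windows lie in GRCr8 at chr20:19265173-19265322, plus strand (Cdk1), chr2:33655196-33655345, minus strand (Ccnb1), chr1:186147538-186147687, plus strand (Plk1), chr5:137255770-137255919, minus strand (Cdc20), chr10:84473064-84473213, minus strand (Top2a) and chr1:199952564-199952713, minus strand (Mki67). Each spans the annotated transcription start of its gene.

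Levels are given as CPM, counts scaled to library size after TMM normalization, which does not correct for transcript length, so levels are compared between rats and not between genes. Summed over the 54 genes, the controls held 46.7 to 85.2 CPM, and the library with the fewest counts of these genes, Control rat 2, held 1624 counts of them. Fold changes are log2 values with the standard error (SE) of the model over all 31 livers, and a gene is called when its adjusted p is under 0.05 over all 19904 genes. All 6 treatments share the same 8 controls, so their changes are not independent of each other. In whole liver RNA, a difference in the number of dividing cells and a difference in the RNA of each such cell cannot be told apart.

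All 54 genes were higher in CTD than in the controls, whereas 6.62% of all 19904 genes were called higher in that comparison. The median log2 fold change was 2.77 (6.82-fold), with a range of 0.94 to 3.58, and over all genes the median was -0.07. In 48 of the 54 genes, every CTD liver lay above every control liver, against 5.33% of all genes. The 3 CTD livers differed among themselves. CTD rat 1 had the highest level of the 3 in 53 of the 54 genes, with a sum of 559 CPM over the genes, whereas rats 2 and 3 had 215 and 180 CPM. Without CTD rat 1, 44 of the 54 genes were still called and the median log2 fold change was 2.07 (4.20-fold). The 10 calls that were lost were those of Cdc25c, Plk1, Ube2c, Pttg1, Espl1, Birc5, Cdca8, Ndc80, Kif4a and Kif15.

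**Figure D1:**
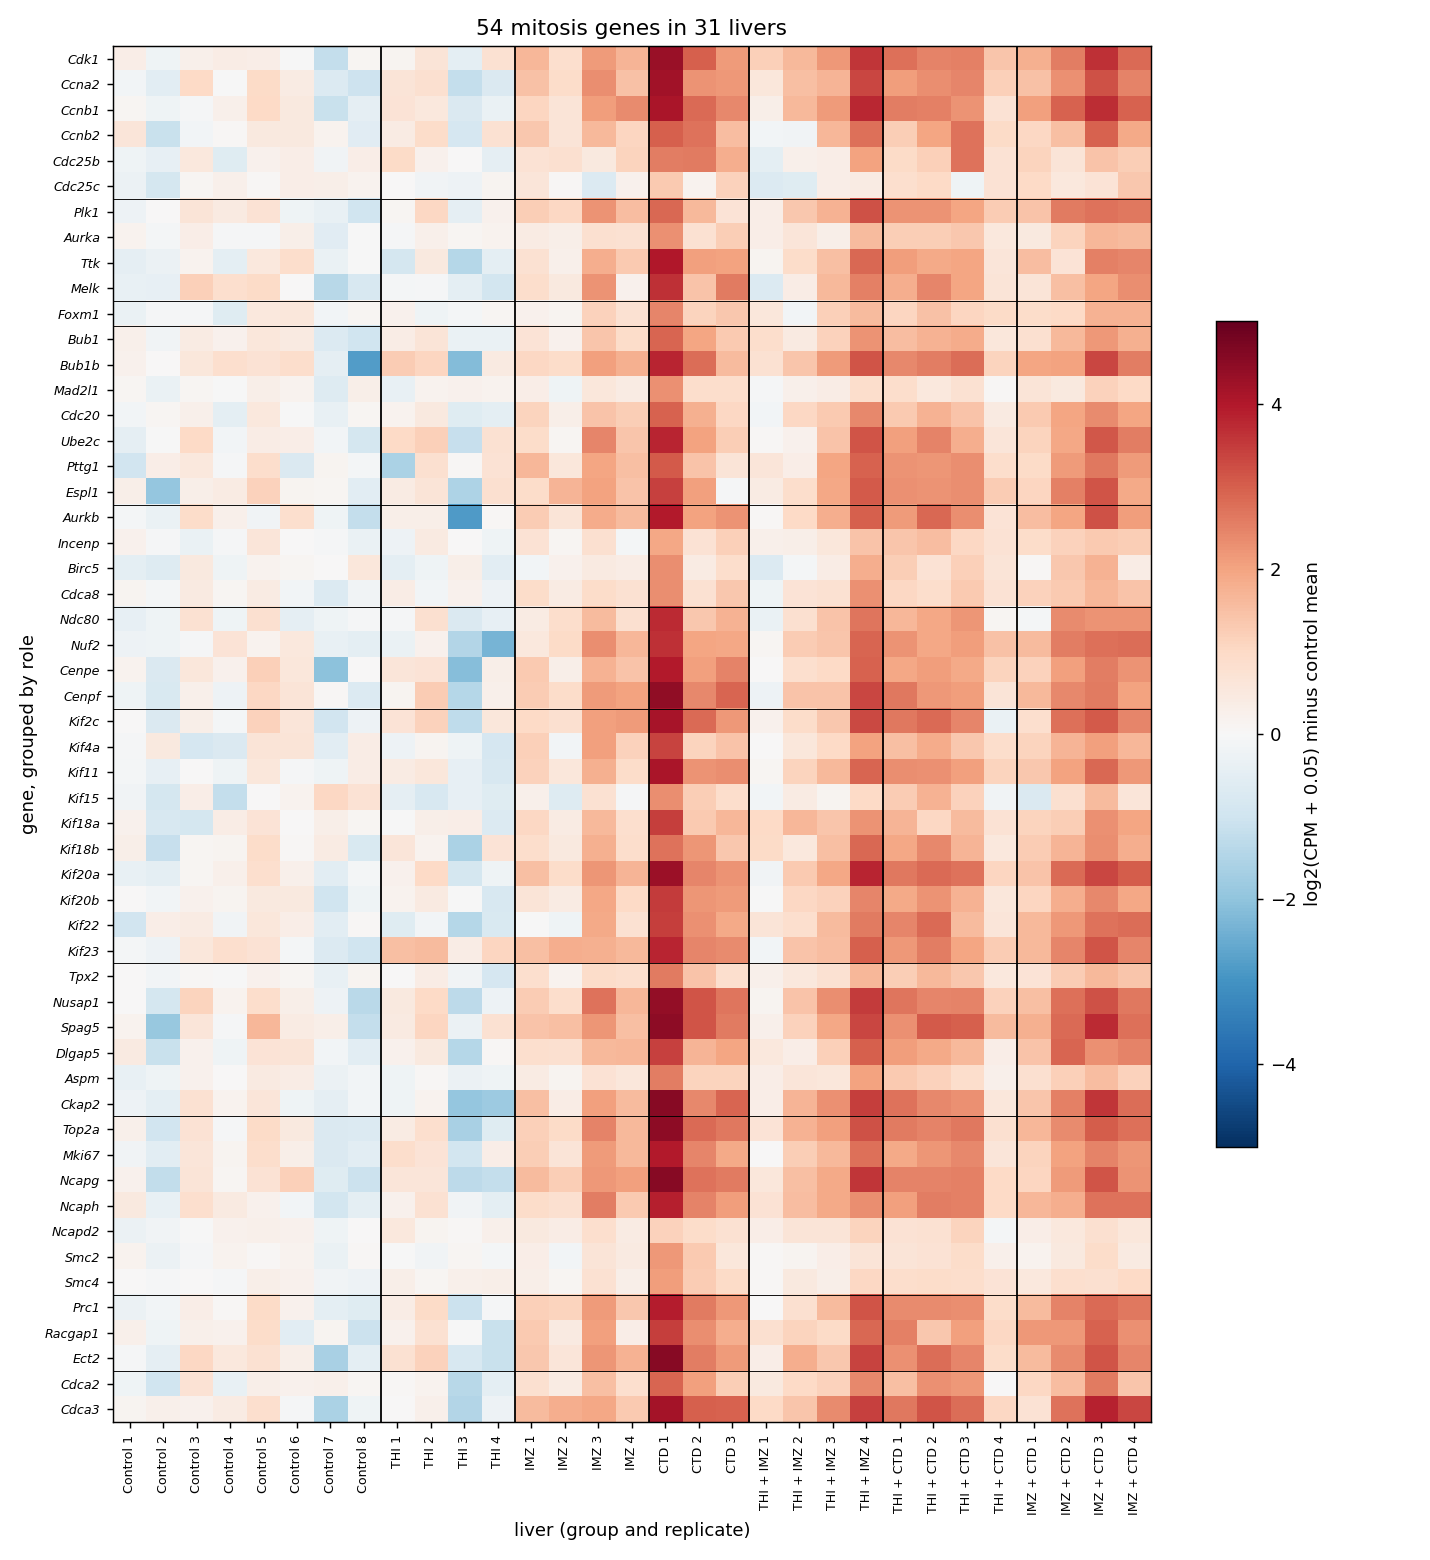
Level of the 54 genes (rows, grouped by role with thin lines) in each of the 31 livers (columns, grouped by treatment with thick lines), as log2(CPM + 0.05) minus the mean of the 8 controls. Red is higher and blue lower than the control mean. CTD rat 1 and THI + IMZ rat 4 are the reddest columns of their groups, highest in 53 and 54 of the rows, and the THI livers scatter on both sides of the controls.

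Cdk1 (ENSRNOG00000000632) is the kinase that drives entry into mitosis. Its level was 0.238 to 0.801 CPM in the controls (median 0.688). The treated livers had 0.674, 0.976, 0.413 and 1.05 CPM with THI, 1.99, 1.1, 2.82 and 2.05 CPM with IMZ and 13, 5.09 and 2.77 CPM with CTD. In the mixtures, the levels were 1.43, 1.93, 2.9 and 7.73 CPM with THI + IMZ, 4.36, 3.61, 3.7 and 1.65 CPM with THI + CTD and 2.15, 3.83, 8.02 and 4.59 CPM with IMZ + CTD. Every IMZ, CTD, THI + IMZ, THI + CTD and IMZ + CTD liver lay above the highest control, while the THI livers lay on both sides of it. The log2 fold change in CTD was 3.44 ± 0.41 (adjusted p = 9.43e-07) and 2.62 without CTD rat 1. Ccnb1 (ENSRNOG00000018635) and Ccna2 encode the cyclins that activate Cdk1 in mitosis and before it. Ccnb1 was at 0.202 to 1.04 CPM in the controls (median 0.499), and the single compounds gave 0.835, 0.732, 0.276 and 0.381 CPM with THI, 1.1, 0.809, 2.28 and 2.72 CPM with IMZ and 9.23, 3.8 and 2.8 CPM with CTD. The mixtures gave 0.609, 1.61, 2.33 and 7.48 CPM with THI + IMZ, 3.18, 3.08, 2.51 and 0.861 CPM with THI + CTD and 2.18, 4.14, 6.99 and 4.21 CPM with IMZ + CTD for the same gene. All CTD livers were above the controls, with a log2 fold change of 3.24 ± 0.48 (adjusted p = 2.12e-05), or 2.57 without CTD rat 1. Ccna2 ranged over 0.217 to 1.05 CPM in the controls (median 0.473), and single treatment gave 0.808, 0.901, 0.193 and 0.286 CPM with THI, 1.47, 0.981, 2.67 and 1.45 CPM with IMZ and 9.91, 2.58 and 2.4 CPM with CTD. Mixture treatment gave 0.773, 1.5, 1.71 and 5.47 CPM with THI + IMZ, 2.29, 2.68, 2.96 and 1.19 CPM with THI + CTD and 1.48, 2.61, 5.0 and 3.05 CPM with IMZ + CTD for Ccna2. Its change in CTD was 3.10 ± 0.48 on the log2 scale (adjusted p = 3.25e-05) and 2.10 without CTD rat 1. Cdc25b and Cdc25c remove the inhibitory phosphates from Cdk1. Cdc25b rose with CTD (2.47 ± 0.39). Cdc25c was at 0.392 to 0.983 CPM in the controls (median 0.844), and it had 0.781, 0.676, 0.634 and 0.857 CPM with THI, 1.2, 0.809, 0.466 and 0.908 CPM with IMZ and 2.0, 0.879 and 1.78 CPM with CTD. The mixtures gave 0.469, 0.483, 0.985 and 1.06 CPM with THI + IMZ, 1.42, 1.58, 0.66 and 1.29 CPM with THI + CTD and 1.57, 1.14, 1.26 and 2.06 CPM with IMZ + CTD for Cdc25c. CTD rat 2 lay inside the control range, and the log2 fold change of 0.95 ± 0.30 (adjusted p = 0.0324) was not called without CTD rat 1, with an estimate of 0.72.

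**Figure D2:**
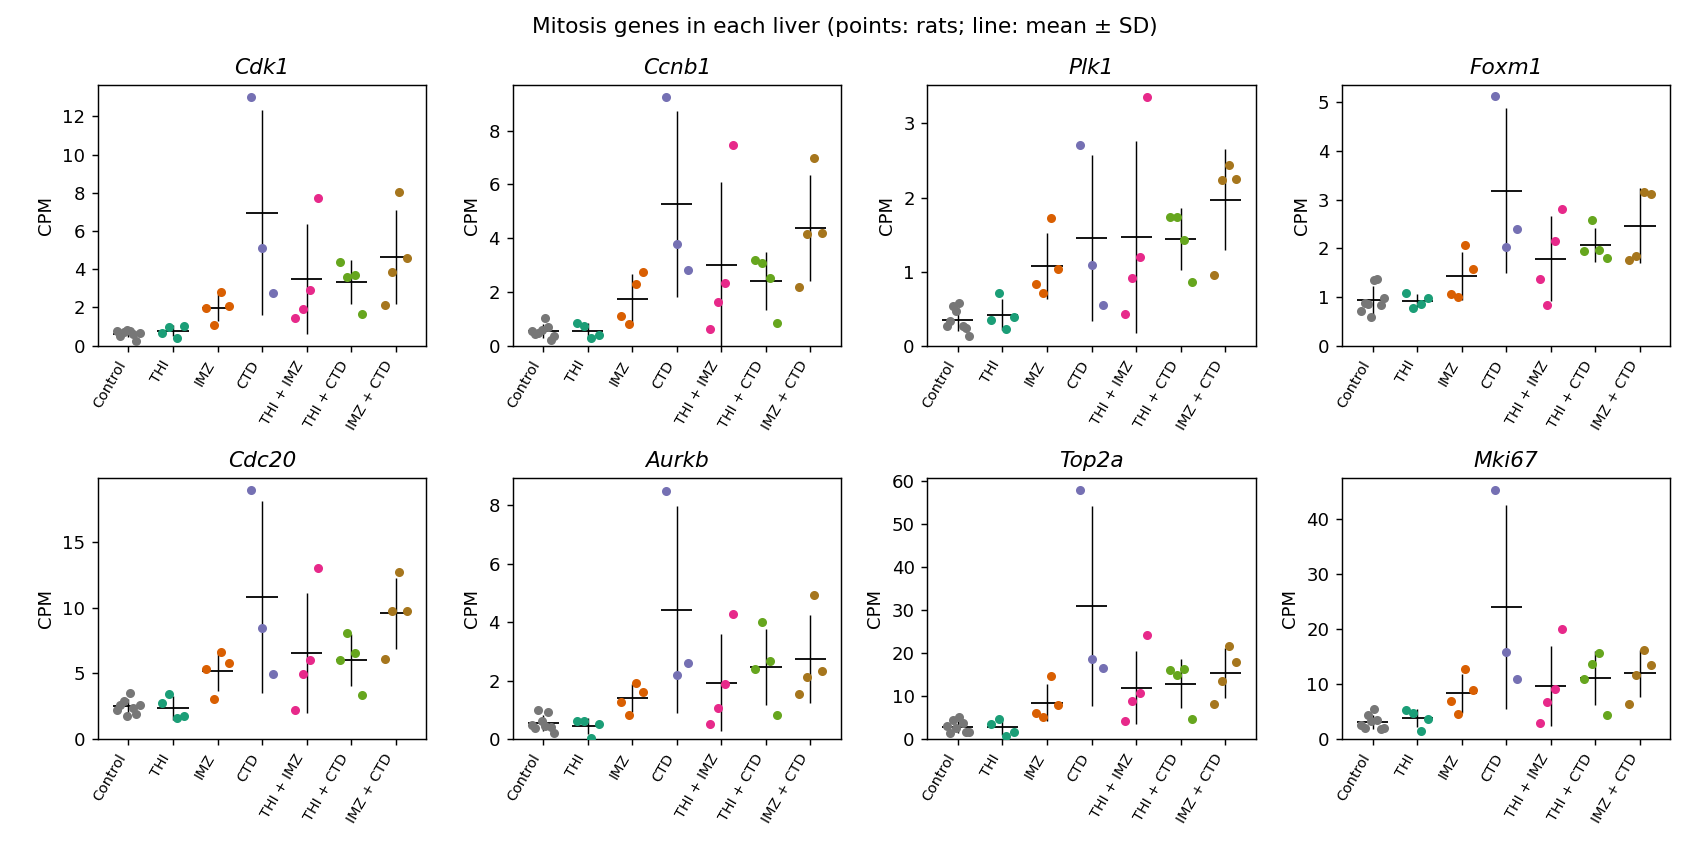
CPM of 8 genes in every liver, by treatment. Each point is 1 rat, the horizontal line is the group mean and the vertical line spans 1 SD on either side. The highest CTD point of Cdk1 is CTD rat 1 at 13 CPM, and the highest THI + IMZ point is rat 4 at 7.73 CPM.

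Among the mitotic kinases, Plk1 (ENSRNOG00000018815), which acts in centrosome maturation, spindle assembly and cytokinesis, was at 0.136 to 0.573 CPM in the controls (median 0.302). Single compounds gave 0.35, 0.713, 0.221 and 0.381 CPM with THI, 0.83, 0.711, 1.72 and 1.04 CPM with IMZ and 2.71, 1.09 and 0.554 CPM with CTD. Mixtures gave 0.422, 0.913, 1.19 and 3.36 CPM with THI + IMZ, 1.73, 1.74, 1.43 and 0.861 CPM with THI + CTD and 0.954, 2.24, 2.44 and 2.25 CPM with IMZ + CTD for Plk1. CTD rat 3 lay just inside the control range. The log2 fold change of 2.03 ± 0.46 in CTD (adjusted p = 0.00255) was 1.21 without CTD rat 1 and was then not called. In THI + CTD and IMZ + CTD the estimate was 2.01 and 2.46. In THI + IMZ, which holds no CTD, it was 2.05, or 1.24 and not called without THI + IMZ rat 4. Aurka, the kinase of spindle poles, was at 1.34 to 2.55 CPM in the controls (median 1.93). It had 1.94, 2.42, 2.15 and 2.29 CPM with THI, 2.68, 2.43, 3.56 and 3.41 CPM with IMZ and 10.01, 3.46 and 4.77 CPM with CTD. In mixtures, Aurka was at 2.51, 3.09, 2.44 and 6.04 CPM with THI + IMZ, 4.72, 4.82, 5.13 and 2.89 CPM with THI + CTD and 2.8, 4.4, 6.35 and 6.13 CPM with IMZ + CTD. All 3 CTD livers were above the controls, and the log2 fold change was 1.58 ± 0.26 (adjusted p = 7.66e-05), or 1.01 without CTD rat 1. Ttk, the kinase that starts spindle checkpoint signalling, and Melk rose with CTD by 3.07 and 2.79 on the log2 scale.

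Foxm1 (ENSRNOG00000005936), the transcription factor of the late cell cycle, was at 0.586 to 1.38 CPM in the controls (median 0.87). Its level was 1.08, 0.769, 0.855 and 0.976 CPM with THI, 1.06, 1.01, 2.06 and 1.58 CPM with IMZ and 5.12, 2.02 and 2.4 CPM with CTD. Mixture livers had 1.36, 0.832, 2.15 and 2.81 CPM with THI + IMZ, 1.95, 2.59, 1.96 and 1.8 CPM with THI + CTD and 1.75, 1.85, 3.14 and 3.11 CPM with IMZ + CTD. The CTD livers did not overlap with the controls. The log2 fold change of 1.75 ± 0.29 (adjusted p = 0.000102; 1.22 without CTD rat 1) was below the median of the 54 genes.

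The 7 genes of the spindle checkpoint and the anaphase switch were all called in CTD, with a median log2 fold change of 2.22. Cdc20 (ENSRNOG00000028415), the activator of the anaphase-promoting complex, was at 1.71 to 3.53 CPM in the controls (median 2.48). The single treatments gave 2.72, 3.43, 1.57 and 1.71 CPM with THI, 5.32, 3.02, 6.6 and 5.77 CPM with IMZ and 19, 8.45 and 4.95 CPM with CTD. The mixtures gave 2.2, 4.97, 6.04 and 13 CPM with THI + IMZ, 6.0, 8.09, 6.56 and 3.32 CPM with THI + CTD and 6.06, 9.76, 12.7 and 9.76 CPM with IMZ + CTD for Cdc20. All CTD livers lay above the controls, with a change of 2.13 ± 0.34 (adjusted p = 6.14e-05), or 1.44 without CTD rat 1. Bub1, a checkpoint kinase at the kinetochore, was at 0.733 to 2.21 CPM in the controls (median 1.75). Livers of the single treatments had 1.94, 2.38, 1.16 and 1.17 CPM with THI, 2.43, 1.74, 4.02 and 2.87 CPM with IMZ and 11.7, 6.07 and 3.81 CPM with CTD. Livers of the mixtures had 2.79, 2.04, 3.37 and 7.18 CPM with THI + IMZ, 4.46, 5.11, 5.6 and 2.2 CPM with THI + CTD and 2.65, 4.66, 6.97 and 5.17 CPM with IMZ + CTD. The change of Bub1 in CTD was 2.16 ± 0.34 (adjusted p = 4.37e-05; 1.62 without CTD rat 1). Securin (Pttg1) and separase (Espl1), the inhibitor and the protease that cuts cohesin, rose by 2.22 and 2.31. Both calls were lost without CTD rat 1. The checkpoint protein Mad2l1 had the smallest change of the 7, at 1.51 ± 0.24.

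The chromosomal passenger complex corrects wrong attachments of chromosomes to the spindle. Its 4 genes rose in CTD by 1.36 to 2.99, and the differences among them were not tested. Aurkb (ENSRNOG00000005659), the kinase of the complex, was at 0.19 to 0.983 CPM in the controls (median 0.451). Single compounds gave 0.62, 0.619, 0.0276 and 0.524 CPM with THI, 1.27, 0.809, 1.91 and 1.6 CPM with IMZ and 8.51, 2.2 and 2.58 CPM with CTD for Aurkb. In the mixtures, Aurkb was at 0.515, 1.05, 1.89 and 4.27 CPM with THI + IMZ, 2.39, 3.99, 2.68 and 0.835 CPM with THI + CTD and 1.54, 2.13, 4.94 and 2.31 CPM with IMZ + CTD. The log2 fold change in CTD was 2.99 ± 0.50 (adjusted p = 8.61e-05; 2.09 without CTD rat 1), and all 3 livers exceeded the controls. Incenp, the scaffold of the complex, was at 1.0 to 1.95 CPM in the controls (median 1.23). It had 1.05, 1.76, 1.3 and 1.1 CPM with THI, 2.14, 1.37, 2.26 and 1.19 CPM with IMZ and 5.07, 2.12 and 2.95 CPM with CTD. The mixtures gave 1.55, 1.56, 1.89 and 3.53 CPM with THI + IMZ, 3.37, 3.77, 2.64 and 2.13 CPM with THI + CTD and 2.46, 2.87, 3.23 and 3.05 CPM with IMZ + CTD for Incenp. Its change of 1.36 ± 0.25 (adjusted p = 0.000333; 0.94 without CTD rat 1) was among the smaller ones. Survivin (Birc5) and borealin (Cdca8) changed by 1.45 and 1.65, and neither was called without CTD rat 1.

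At the kinetochore, where chromosomes attach to microtubules, Ndc80, Nuf2, Cenpe and Cenpf rose with CTD by 2.72 to 3.44. Cenpf was at 0.332 to 1.28 CPM in the controls (median 0.572). Its single-compound values were 0.674, 1.54, 0.193 and 0.738 CPM with THI, 1.54, 1.18, 2.82 and 2.59 CPM with IMZ and 13.9, 3.44 and 4.86 CPM with CTD. Its mixture values were 0.492, 1.69, 1.68 and 6.65 CPM with THI + IMZ, 4.07, 2.85, 2.73 and 0.987 CPM with THI + CTD and 1.94, 3.38, 3.91 and 2.57 CPM with IMZ + CTD. The 3 CTD livers did not overlap with the controls (log2 fold change 3.44 ± 0.49, adjusted p = 1.08e-05; 2.61 without CTD rat 1).

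All 10 mitotic kinesins, motor proteins that move chromosomes and shape the spindle, were called higher in CTD, with a range of 1.55 (Kif15) to 3.29 (Kif20a). Kif20a, needed for cytokinesis, was at 0.587 to 1.6 CPM in the controls (median 0.85). Its levels were 0.997, 1.78, 0.441 and 0.738 CPM with THI, 2.53, 1.67, 4.1 and 2.9 CPM with IMZ and 17.7, 4.88 and 4.28 CPM with CTD. With mixtures, Kif20a was at 0.75, 2.17, 3.4 and 12.6 CPM with THI + IMZ, 5.59, 6.36, 5.88 and 1.87 CPM with THI + CTD and 2.37, 6.33, 9.14 and 7.32 CPM with IMZ + CTD. No CTD liver overlapped with the controls for Kif20a (adjusted p = 2.46e-05; log2 fold change 2.32 without CTD rat 1). Kif23, a motor of the central spindle, was at 0.109 to 0.509 CPM in the controls (median 0.242). Single treatment gave 0.835, 0.901, 0.358 and 0.619 CPM with THI, 0.849, 1.05, 1.03 and 0.908 CPM with IMZ and 4.34, 1.68 and 1.57 CPM with CTD for Kif23. The mixtures gave 0.234, 0.805, 0.855 and 2.45 CPM with THI + IMZ, 1.37, 1.81, 1.17 and 0.709 CPM with THI + CTD and 0.923, 1.65, 2.76 and 1.67 CPM with IMZ + CTD. In CTD the change of Kif23 was 3.06 ± 0.43 (adjusted p = 9.04e-06; 2.42 without CTD rat 1).

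Of the spindle assembly proteins, Tpx2, the activator of Aurora A, was at 2.07 to 3.13 CPM in the controls (median 2.74). Single compounds gave 2.69, 3.43, 2.37 and 1.45 CPM with THI, 4.82, 3.04, 5.15 and 4.86 CPM with IMZ and 16.3, 7.18 and 4.8 CPM with CTD for Tpx2. The mixtures gave 3.23, 3.87, 4.51 and 8.64 CPM with THI + IMZ, 6.38, 8.3, 6.94 and 3.9 CPM with THI + CTD and 4.34, 6.44, 8.29 and 7.16 CPM with IMZ + CTD. Its log2 fold change in CTD was 1.81 ± 0.27 (adjusted p = 2.23e-05), or 1.16 without CTD rat 1. Ckap2, a microtubule-associated protein, had the largest change of all 54 genes in CTD. Its level was 0.603 to 1.52 CPM in the controls (median 0.764). It had 0.754, 0.995, 0.193 and 0.214 CPM with THI, 2.55, 1.15, 3.78 and 2.7 CPM with IMZ and 21.6, 4.86 and 6.8 CPM with CTD. Mixture livers had 1.12, 2.98, 4.41 and 9.95 CPM with THI + IMZ, 6.02, 4.86, 4.43 and 1.32 CPM with THI + CTD and 2.34, 5.22, 10.9 and 6.26 CPM with IMZ + CTD for Ckap2. All CTD livers were above the controls, with a change of 3.58 ± 0.48 (adjusted p = 4.88e-06; 2.65 without CTD rat 1).

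The chromosome structure genes held both large and small changes. Top2a (ENSRNOG00000032404), the topoisomerase that disentangles sister chromatids, was at 1.33 to 5.12 CPM in the controls (median 2.78). The single treatments had 3.5, 4.71, 0.799 and 1.69 CPM with THI, 6.06, 5.03, 14.7 and 7.97 CPM with IMZ and 57.8, 18.6 and 16.5 CPM with CTD. The mixtures had 4.19, 8.83, 10.8 and 24.1 CPM with THI + IMZ, 15.9, 14.8, 16.3 and 4.53 CPM with THI + CTD and 8.24, 13.4, 21.6 and 18 CPM with IMZ + CTD for Top2a. The change in CTD was 3.40 ± 0.45 (adjusted p = 4.14e-06; 2.58 without CTD rat 1). Mki67 (ENSRNOG00000028137) encodes Ki-67, the widely used marker of dividing cells that coats mitotic chromosomes. It was at 1.74 to 5.4 CPM in the controls (median 2.87). It had 5.28, 4.69, 1.49 and 3.59 CPM with THI, 6.89, 4.59, 12.8 and 8.9 CPM with IMZ and 45.2, 15.8 and 10.9 CPM with CTD. Mixtures gave 2.93, 6.77, 9.07 and 19.9 CPM with THI + IMZ, 10.8, 13.6, 15.6 and 4.38 CPM with THI + CTD and 6.27, 11.7, 16.3 and 13.4 CPM with IMZ + CTD for Mki67. All 3 CTD livers exceeded every control, with a change of 2.94 ± 0.42 (adjusted p = 1.18e-05; 2.09 without CTD rat 1). Condensin compacts the chromosomes, and its subunits rose by different amounts. Ncapg and Ncaph, which belong to condensin I, rose by 3.48 and 3.09, whereas the other condensin I subunit Ncapd2 and the shared subunits Smc2 and Smc4 rose by 0.94, 1.47 and 1.50. The differences among subunits were not tested. Ncapd2 was at 5.07 to 7.51 CPM in the controls (median 6.25). Its single-treatment levels were 8.92, 6.89, 6.53 and 7.43 CPM with THI, 8.8, 8.0, 11.1 and 8.3 CPM with IMZ and 14.1, 11.7 and 10.6 CPM with CTD. Its mixture levels were 7.85, 9.85, 9.9 and 13.7 CPM with THI + IMZ, 10.5, 10.7, 13.7 and 5.82 CPM with THI + CTD and 7.78, 9.06, 11.1 and 9.22 CPM with IMZ + CTD. Ncapd2 had the smallest change of the 54 genes (adjusted p = 0.000257; 0.82 without CTD rat 1), with no overlap between CTD and controls. Smc4 was at 5.7 to 8.38 CPM in the controls (median 6.78). It had 8.38, 7.3, 8.21 and 8.5 CPM with THI, 8.47, 7.38, 11.6 and 8.52 CPM with IMZ and 29.1, 16.4 and 13.2 CPM with CTD. The mixtures gave 7.17, 9.53, 8.42 and 14.2 CPM with THI + IMZ, 12.6, 12.9, 12.8 and 10.9 CPM with THI + CTD and 9.78, 12.1, 11.9 and 13.7 CPM with IMZ + CTD for Smc4. Its SE was small, and the change of 1.50 ± 0.17 had the lowest adjusted p of the 54 genes (3.86e-07; log2 fold change 1.10 without CTD rat 1).

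In cytokinesis, Prc1, the bundler of central spindle microtubules, was at 0.624 to 1.94 CPM in the controls (median 0.954). Prc1 had 1.29, 1.97, 0.441 and 0.952 CPM with THI, 2.28, 2.21, 4.44 and 2.55 CPM with IMZ and 15.4, 6.15 and 4.61 CPM with CTD. The mixtures gave 0.984, 1.75, 3.06 and 9.17 CPM with THI + IMZ, 5.23, 5.26, 5.05 and 1.87 CPM with THI + CTD and 3.01, 5.68, 7.2 and 6.36 CPM with IMZ + CTD for Prc1. In CTD its change was 3.05 ± 0.43 (adjusted p = 1.08e-05; 2.35 without CTD rat 1). Racgap1 and Ect2, which switch on the contractile ring, changed by 2.94 and 3.36. The remaining genes were Cdca2, which brings a phosphatase to chromosomes, and Cdca3, a trigger of mitotic entry. Cdca2 was at 0.302 to 1.12 CPM in the controls (median 0.731). It had 0.674, 0.751, 0.221 and 0.452 CPM with THI, 1.18, 0.883, 1.96 and 1.19 CPM with IMZ and 5.28, 2.84 and 1.6 CPM with CTD. The mixtures gave 0.937, 1.34, 1.5 and 3.61 CPM with THI + IMZ, 1.95, 3.37, 3.13 and 0.658 CPM with THI + CTD and 1.38, 2.02, 4.14 and 1.77 CPM with IMZ + CTD for Cdca2. Its change in CTD was 2.23 ± 0.40 (adjusted p = 0.000258; 1.68 without CTD rat 1). Cdca3 was at 0.0733 to 0.609 CPM in the controls (median 0.366). Single compounds had 0.323, 0.394, 0.0827 and 0.262 CPM with THI, 1.06, 1.25, 1.37 and 0.865 CPM with IMZ and 6.48, 2.92 and 2.83 CPM with CTD for Cdca3. The mixtures had 0.679, 0.913, 1.87 and 3.93 CPM with THI + IMZ, 2.26, 3.21, 2.49 and 0.709 CPM with THI + CTD and 0.554, 2.36, 5.23 and 3.66 CPM with IMZ + CTD. Its change in CTD was 3.50 ± 0.47 (adjusted p = 5.73e-06; 2.99 without CTD rat 1), the second largest of the 54.

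**Figure D3:**
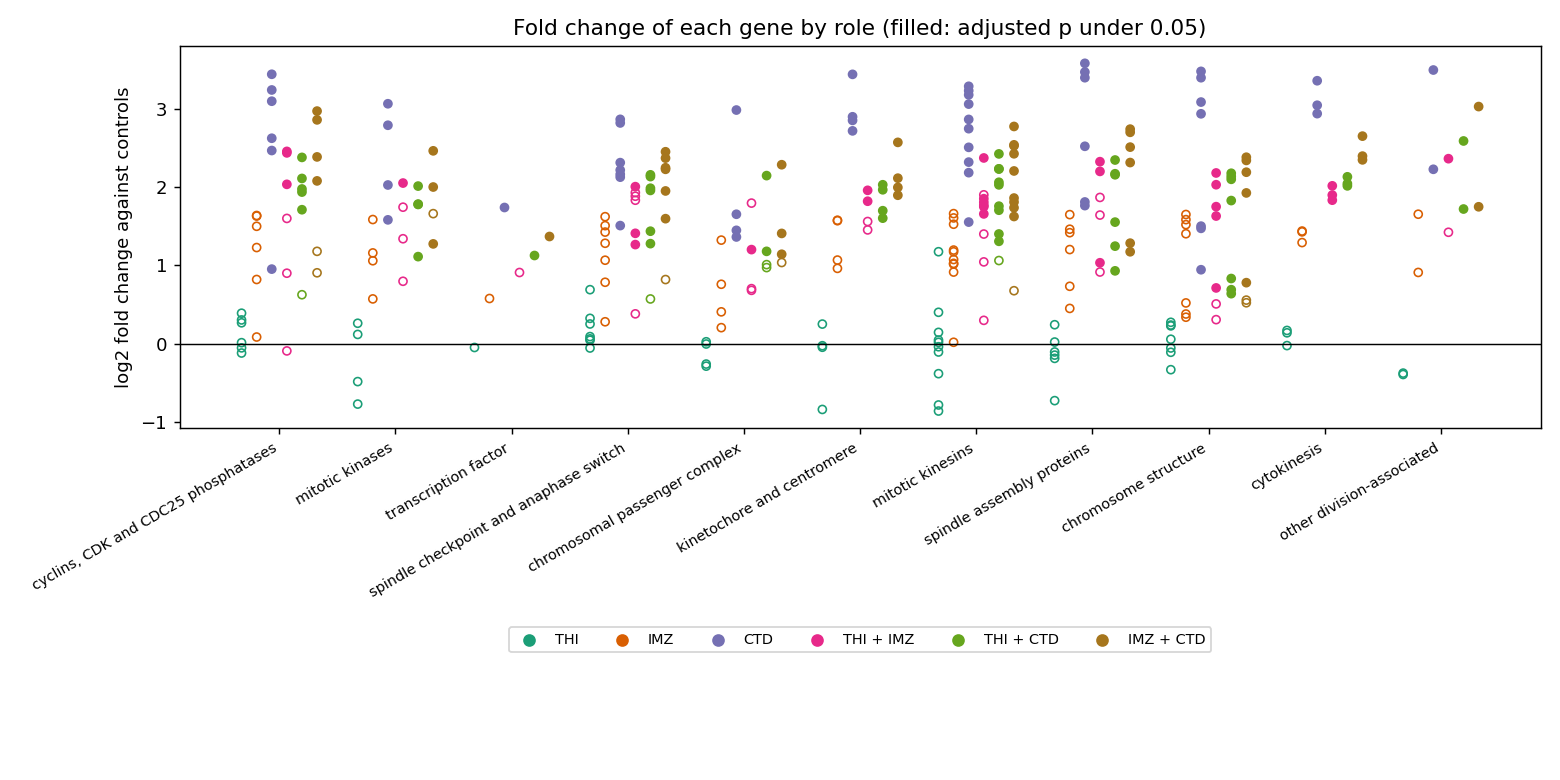
Log2 fold change against the 8 controls (y axis) of each of the 54 genes, by role (x axis) and treatment (color). Each point is 1 gene, and filled points have an adjusted p under 0.05. All CTD points are filled and lie between 0.94 and 3.58, and all THI and IMZ points are open.

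Some genes of a list of red blood cell precursor markers, mainly globins, also differed from the controls in CTD. Of 10 such markers tested, 5 were higher and 1 was lower in CTD, against 6.62% and 6.03% of all genes. The higher ones were the globins Hba1 (2.18 ± 0.46), Hba2 (2.35 ± 0.48), Hbb (2.83 ± 0.48) and Hbb-b1 (2.11 ± 0.51) and Alas2 (2.34 ± 0.63), the erythroid enzyme of heme synthesis, while the membrane anion exchanger Slc4a1 was lower (-0.77 ± 0.24). The markers summed to 28.8 to 71.0 CPM in the controls and to 160 to 196 CPM in CTD. Klf1, Ahsp and Rhag, which mark erythroid precursors more closely, summed to 0.572, 0 and 0.523 CPM in CTD rats 1 to 3. In the controls they summed to 0.19 to 0.562 CPM, and only Control rat 3 lay above 0.293 CPM. Gata1 did not pass the filter. In CTD, rat 1 had the highest sums of red cell markers and of the 54 genes (196 and 559 CPM). CTD rat 2 was close to rat 1 in red cell markers but not in the 54 genes (194 and 215 CPM). CTD rat 3 had the lowest sums of this group (160 and 180 CPM). THI rat 1 had 126 CPM of red cell markers, above all controls, and 71.9 CPM of the 54 genes, inside the control range. In the mixtures, the livers with the highest summed levels of the 54 genes were THI + IMZ rat 4 and IMZ + CTD rat 3. They had 33.2 and 22.3 CPM of red cell markers. THI + CTD rat 3 had 223 CPM of red cell markers, the highest of all livers, and 198 CPM of the 54 genes. Rats 1 and 2 of that group had 39.7 and 36.5 CPM of red cell markers and 188 and 204 CPM of the 54 genes. Whether the red cell markers and the 54 genes changed together was not tested.

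**Figure D4:**
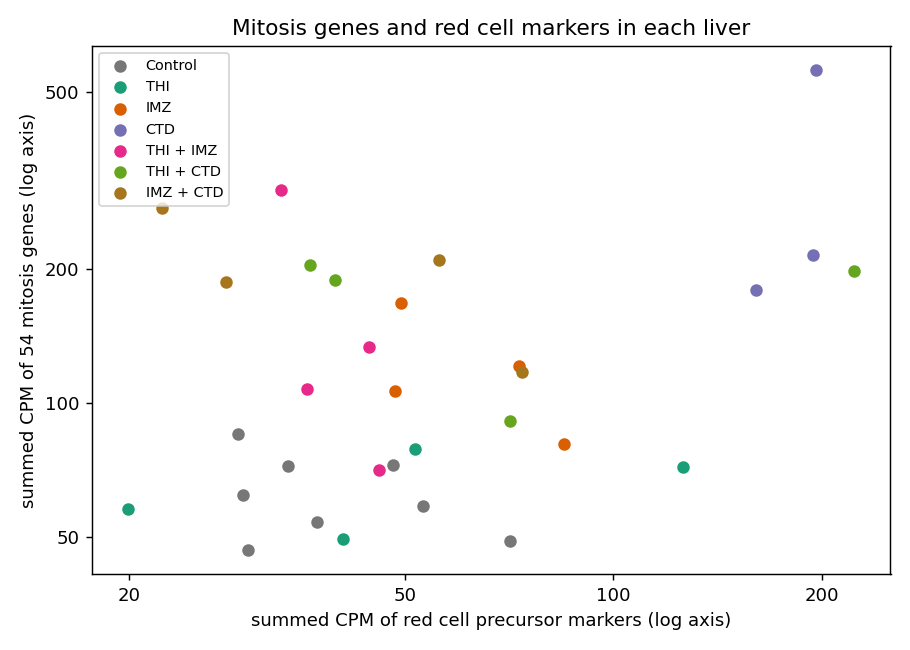
Summed CPM of the red cell precursor markers (x axis, logarithmic) and of the 54 genes (y axis, logarithmic) in each of the 31 livers, colored by treatment. The CTD livers are high on both axes, whereas THI + IMZ rat 4 and IMZ + CTD rat 3 are high only on the y axis.

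Markers of other liver cell types were examined in the same fit. In CTD, 5 of 12 Kupffer cell and macrophage markers were lower, where 6.03% of all genes were called lower. Among them were Cd68 (-0.67 ± 0.16), C1qb (-0.57 ± 0.14), C1qa (-0.54 ± 0.15) and C1qc (-0.44 ± 0.13), and the summed level of the 12 was 410 to 596 CPM against 533 to 837 CPM in the controls. Of 12 hepatocyte markers 4 were lower in CTD, namely Ambp (-0.34 ± 0.07), Tat (-0.93 ± 0.25), Asgr1 (-0.56 ± 0.16) and Apoa2 (-0.36 ± 0.11). The summed hepatocyte level in CTD, 200183 to 220481 CPM, lay inside the control range of 196678 to 259142 CPM, and in the other treatments it ran from 172136 to 263057 CPM, so that hepatocyte transcripts were abundant in every library. Of 10 sinusoidal endothelial markers, Kdr (-0.58 ± 0.10) and Cdh5 (-0.44 ± 0.12) were lower. Among 10 stellate cell and fibroblast markers, Col3a1 was higher (0.54 ± 0.13) and Reln lower (-0.46 ± 0.15). In THI + CTD the globin Hbb was higher (1.59 ± 0.45). Lower in THI + CTD were 5 Kupffer cell and macrophage markers, 3 hepatocyte markers, Cd4 of the T and NK cell list (-0.56 ± 0.12) and the endothelial marker Kdr (-0.34 ± 0.09). Over all genes, 1.71% were called lower. Of the stellate cell and fibroblast markers, Col1a1 was higher (0.91 ± 0.24) and Reln lower (-0.47 ± 0.13) in THI + CTD. None of 12 T and NK cell, 7 B and plasma cell or 10 mast cell and granulocyte markers was called in CTD (edgeR). Of them 3, 0 and 0 had an unadjusted p under 0.05, compared with 25.2% of all genes. The part of these markers in the change of the 54 genes was not tested.

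In IMZ the estimates of all 54 genes were above 0, but none passed the threshold (edgeR), against 0.191% of all genes called higher. The median log2 fold change was 1.20 (2.29-fold), with a range of 0.02 to 1.66, and 44 of the 54 had an unadjusted p under 0.05, compared with 8.08% of all genes. The lowest adjusted p was that of Cdk1 (1.64 ± 0.41, adjusted p = 0.0848). In 11 genes, among them Cdk1, Plk1, Kif20a, Kif23, Prc1, Ncapd2 and Cdca3, every IMZ liver lay above every control, against 0.713% of all genes. DESeq2 called 6 genes, namely Cdk1, Plk1, Nuf2, Kif23, Ncaph and Cdca3. A fit of only the IMZ and control livers called 12. IMZ rat 3 was highest of its group in 47 genes and IMZ rat 2 lowest in 42. Summed over the genes, the IMZ livers had 80.8 to 167 CPM, so that rat 2, with 80.8 CPM, lay inside the control range.

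In THI the genes lay around the control level. The median log2 fold change was 0.00, 27 of 54 estimates were above 0, and no gene was called higher or lower by edgeR or by DESeq2, against 0.377% of all genes called higher by edgeR. A single gene, Kif23 (1.17 ± 0.43, adjusted p = 0.382), had an unadjusted p under 0.05. For no gene did all 4 THI livers exceed every control (0.734% of all genes did). The summed level, 49.3 to 78.8 CPM, lay inside the control range. The estimates ran from -0.86 (Kif22) to 1.17 (Kif23). SEs were large beside them, as for Top2a (-0.11 ± 0.47) and Mki67 (0.27 ± 0.43).

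With THI + IMZ, 28 of 54 genes were called higher and none lower, against 0.849% of all genes called higher. A median log2 fold change of 1.75 (3.35-fold) was found, and only Cdc25c had an estimate below 0 (-0.09 ± 0.29, not called). The largest was Cdk1 (2.46 ± 0.39, adjusted p = 0.000584). On the log2 scale the livers of this group spread most, with an SD of 0.995 for the mean over the genes against 0.391 in the controls and 0.894 in CTD. THI + IMZ rat 4 had 301 CPM summed over the genes and was highest in all 54, whereas rat 1 had 70.6 CPM and lay inside the control range. In 6 genes, Cdk1, Kif18a, Kif22, Tpx2, Ncapd2 and Cdca3, all 4 livers lay above every control, against 0.794% of all genes. Without rat 4 only Cdk1 was called (1.71), and the median log2 fold change was 0.89 (1.85-fold). Without rat 1, 39 genes were called. Leaving out Control rat 1, 7 or 8 gave 18, 18 and 17 calls. By role, 3 of 3 tested cytokinesis genes, 5 of 7 chromosome structure genes and 6 of 10 kinesins were called. Of 4 mitotic kinases 1 (Plk1) and of 4 passenger complex genes 1 (Cdca8) were called. The median log2 fold changes of these roles, called or not, were 1.90, 1.63, 1.76, 1.54 and 0.95 in the same order. Differences among the roles were not tested.

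With THI + CTD, 48 of 54 genes were called higher, against 2.67% of all genes. Their median log2 fold change was 1.88 (3.69-fold). The 6 genes not called were Cdc25c, Melk, Mad2l1, Birc5, Cdca8 and Kif15. In 28 genes all 4 livers exceeded every control, against 2.14% of all genes. Rats 1, 2 and 3 were close to each other, with sums of 188, 204 and 198 CPM, while rat 4 had 90.9 CPM and was lowest in 53 of the genes. Without rat 4, 49 genes were called and the median was 2.12. The largest changes were those of Cdca3 (2.59 ± 0.45, adjusted p = 0.000758) and Kif20a (2.42 ± 0.47, adjusted p = 0.00228). All 4 kinetochore genes, all 6 spindle assembly genes tested and all 7 chromosome structure genes were called.

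With IMZ + CTD, 46 of 54 genes were called higher, against 1% of all genes. The median log2 fold change was 2.10 (4.28-fold), and Cdca3 (3.03 ± 0.45, adjusted p = 0.000438), Ccnb1 (2.97 ± 0.46, adjusted p = 0.000616) and Cdk1 (2.86 ± 0.39, adjusted p = 0.000154) changed most. In 43 genes all 4 livers exceeded every control, against 1.61% of all genes. The sums over the genes were 117, 187, 274 and 210 CPM in rats 1 to 4, and rat 3 was highest in 46 genes. Without rat 3, 20 genes were called and the median was 1.80 (3.49-fold). The 8 genes not called with all rats were Cdc25b, Cdc25c, Melk, Mad2l1, Birc5, Kif15, Ncapd2 and Smc2, of which Cdc25c, Mad2l1, Kif15, Ncapd2 and Smc2 had estimates under 1. Birc5 was 1.04 ± 0.37, Cdc25c was 0.90 ± 0.28, Cdc25b was 1.18 ± 0.39 and Melk was 1.66 ± 0.56.

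Whether treatments differed from each other was tested in the same fit. The daily doses differ between the compounds (108 mg/kg bw for THI, 93 for IMZ and 288 for CTD), so these tests compare the treatments as given. CTD exceeded THI in 51 of 54 genes, against 3.42% of all genes called higher, with a median difference of 2.67 in log2 fold change. The exceptions were Cdc25c, Ube2c and Pttg1, whose differences were 1.07 ± 0.35, 2.18 ± 0.70 and 1.97 ± 0.66. Without CTD rat 1, 27 genes were called. CTD exceeded IMZ in 16 genes, against 2.28% of all genes, with a median difference of 1.52. The smallest p-values were those of Smc4 (1.12 ± 0.20, adjusted p = 0.000825) and Smc2 (1.14 ± 0.23, adjusted p = 0.00288), and Mki67 was not called (1.53 ± 0.50, adjusted p = 0.0753). Without CTD rat 1 only Smc4 was called, and without IMZ rat 1, 2 or 4 there were 5, 3 and 5 calls. The IMZ and THI livers did not differ in any gene at the threshold (edgeR), against 0.01% of all genes called. The median difference was 1.15 toward IMZ, 31 genes had an unadjusted p under 0.05, and DESeq2 called Nuf2 only. For Cdk1 the difference was 1.34, with a 95% interval from 0.32 to 2.35.

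THI + CTD and IMZ + CTD hold nearly the same CTD dose (134 and 135 mg/kg bw/day) with different partners. No gene was called between them by edgeR or DESeq2, against 0.176% of all genes with edgeR, and none of the 54 had an unadjusted p under 0.05. The median difference was -0.24, with IMZ + CTD the higher, but -0.01 without THI + CTD rat 4 and close to 0 without IMZ + CTD rat 3. All 54 of the 95% intervals held 0. The intervals were wide. For Cdk1 the interval ran from -1.40 to 0.44 and for Mki67 from -1.06 to 0.86.

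Each mixture was also compared with what its compounds gave alone, scaled to the mixture's doses and added, with 0.5 of the log2 fold change of THI or IMZ and 0.47 of that of CTD. For THI + IMZ the estimates exceeded the sum in 53 of 54 genes, with a median excess of 1.04, and 39 had an unadjusted p under 0.05, compared with 6.46% of all genes. None was called by edgeR, against 0.0151% of all genes, and DESeq2 called Ckap2 only, for which the excess was 1.96 ± 0.47 (edgeR, adjusted p = 0.119). Without THI + IMZ rat 4 the median excess was 0.31. For THI + CTD the median excess was 0.52 (0.87 without CTD rat 1 and 0.37 without CTD rat 3), with 6 genes at an unadjusted p under 0.05 and none called by either tool (0.286% of all genes by edgeR). For IMZ + CTD the median excess was 0.23, with no gene at an unadjusted p under 0.05 and none called by either tool (1.16% of all genes by edgeR), and it was -0.07 without IMZ + CTD rat 3 and 0.51 without CTD rat 1. All 54 intervals of IMZ + CTD held 0, and for Cdk1 the interval ran from -0.37 to 1.22.

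**Figure D5:**
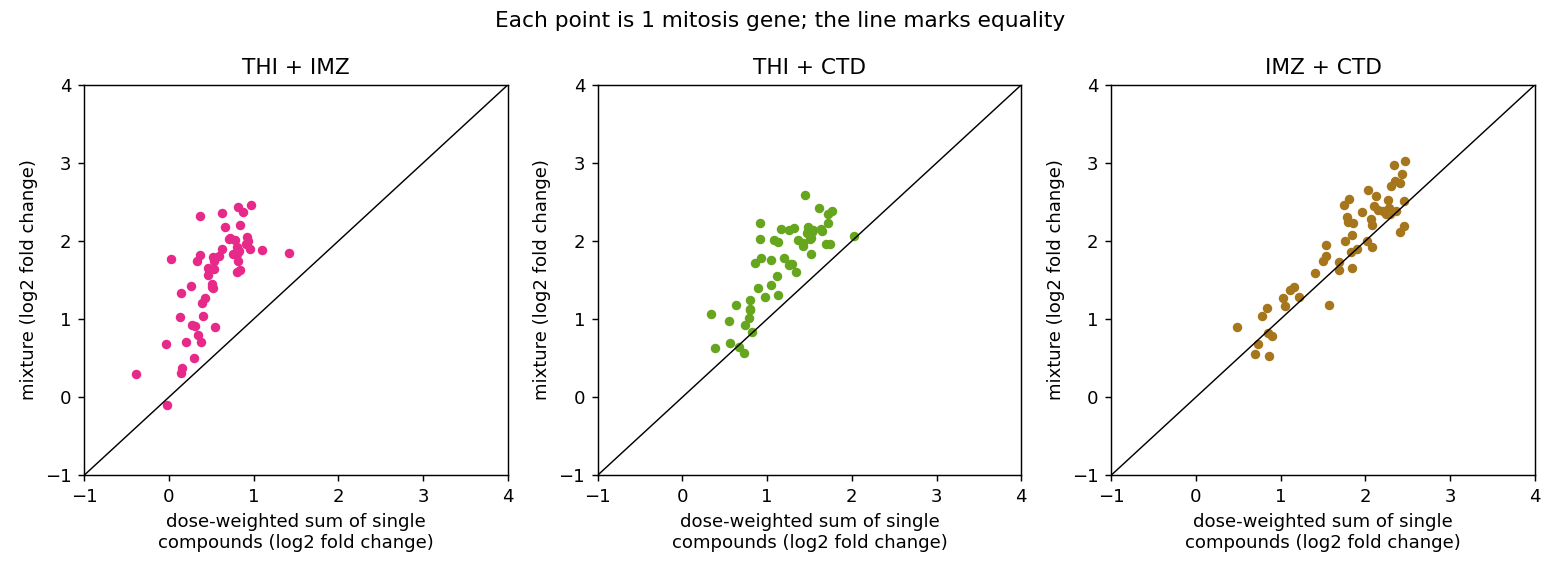
Log2 fold change of the mixture (y axis) against the dose-weighted sum of the single compounds (x axis) for each of the 54 genes, in the 3 mixtures. The line marks equality. In THI + IMZ 53 of 54 genes lie above the line, in THI + CTD 52 and in IMZ + CTD 41, and edgeR called none of them.

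Other genes of the same process were read from further lists. Of 54 other mitosis genes tested, 41 were higher and 1 lower in CTD, against 6.62% and 6.03% of all genes. Their median was 1.95. The largest changes were those of the mitotic kinase Pbk (3.98 ± 0.50, adjusted p = 1.74e-06) and the centromere protein Cenpw (3.69 ± 0.75, adjusted p = 0.000988). The smallest estimates were those of the checkpoint protein Mad1l1 (-0.47 ± 0.11, adjusted p = 0.00376), which was lower, and the cytokinesis kinase Cit (-0.44 ± 0.21, adjusted p = 0.184). The same list had 2 genes higher in THI, 1 in IMZ, 9 in THI + IMZ, 28 in THI + CTD and 22 in IMZ + CTD. Over all genes, the shares called higher were 0.377%, 0.191%, 0.849%, 2.67% and 1% in the same order. The genes called in THI were Pimreg (2.97 ± 0.67) and the kinetochore gene Zwint (0.55 ± 0.11), and Zwint was also the gene called in IMZ (0.48 ± 0.11). In THI + CTD, Cit was the 1 gene called lower, against 1.71% of all genes.

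Of 30 genes of DNA replication, the phase before mitosis, 21 were higher in CTD and none in THI or IMZ. In the mixtures, 2 were higher in THI + IMZ (Rrm2 and Chaf1b), 16 in THI + CTD and 6 in IMZ + CTD. The shares of all genes called higher were 6.62% in CTD, 0.849% in THI + IMZ, 2.67% in THI + CTD and 1% in IMZ + CTD. With edgeR, 4 and 7 of the 30 had an unadjusted p under 0.05 in THI and IMZ, against 8.68% and 8.08% of all genes. The median log2 fold changes of the 30 were -0.21 in THI and 0.22 in IMZ. The median log2 fold change in CTD was 0.94, lower than the 2.77 of the 54 genes. The largest were Rrm2 (3.53 ± 0.55), a subunit of ribonucleotide reductase, and Uhrf1 (2.63 ± 0.41), which guides maintenance of DNA methylation. The smallest were the polymerase subunit Pold1 (0.11 ± 0.22) and the ligase Lig1 (0.43 ± 0.22), neither of which was called.

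Of 19 genes of the DREAM, B-Myb-MuvB, E2F and NF-Y factors tested, 8 were higher in CTD, against 6.62% of all genes, and none lower. They were E2f1 (2.21 ± 0.29), an activator of S phase genes, the repressors E2f7 (2.56 ± 0.52) and E2f8 (2.56 ± 0.56), the B-Myb gene Mybl2 (1.79 ± 0.41), the MuvB subunit Lin9 (1.02 ± 0.33), the pocket proteins Rbl1 (0.96 ± 0.21) and Rb1 (0.63 ± 0.15), and E2f3 (0.47 ± 0.10). In THI + CTD 4 and in IMZ + CTD 2 of the 19 were higher, against 2.67% and 1% of all genes. Of 9 CDK inhibitors and antiproliferative genes, 1 was higher and 1 lower in CTD, near the 6.62% and 6.03% of all genes. Cdkn2c was higher (1.97 ± 0.28, adjusted p = 1.33e-05) and Btg2 was lower (-1.40 ± 0.30, adjusted p = 0.00176). In the CTD livers, Btg2 was at 13.9, 9.25 and 15.5 CPM, below all controls (20.8 to 50.7 CPM). In the mixtures, Cdkn2c was also higher in THI + CTD (1.36 ± 0.27) and IMZ + CTD (1.50 ± 0.27), and Btg2 (adjusted p = 0.021) and Cdkn1c (-0.90 ± 0.26) were lower in THI + CTD. Cdkn1a, the p21 gene, was lower in THI (-1.49 ± 0.25, adjusted p = 0.00103) and in THI + CTD (-0.87 ± 0.24, adjusted p = 0.0272). The THI livers had 3.48, 4.54, 5.18 and 5.07 CPM of Cdkn1a, below all controls (8.7 to 16.8 CPM).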

How the data were processed

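Per the labels and the study's methods, the authors made stranded total RNA libraries of frozen liver, trimmed the reads, checked them with FastQC 0.11.5, mapped and counted them per gene with STAR 2.5.2b on Rnor_5.0, and normalized with DESeq2 1.15.1. The annotation release and the strand setting of the counting are not given in the sources used here. How reads of overlapping genes were handled is therefore not known. The authors deposited whole-number counts of 26312 genes. They also deposited a signal table, in which 19904 of these genes are scaled by DESeq2 size factors. It served only to check the counts. Genes were matched by symbol, and no positions on Rnor_5.0 are given.

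Genes that reached 2 counts over all libraries were fitted with edgeR 4.0.16 in R 4.3.3 (TMM, quasi-likelihood F test with the older method, 1 mean for each of 7 groups, Benjamini-Hochberg over 19904 genes, threshold 0.05). The SE was derived from the fold change and its F value, and 95% intervals use the t quantile of the fit. Mean levels over genes used log2 CPM with a prior count of 2. The replicates are separate rats. The steps were tested on simulated data. The alternatives were DESeq2 1.42.0, its size factors, other filters, libraries thinned to equal depth, the newer quasi-likelihood method, only the groups compared, a replicate block, and each rat left out.

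The members and lists were chosen with earlier results of these data known. Values in every rat are given for 8 chosen genes, the highest-level remaining gene of each role, the 2 largest and 2 smallest changes in CTD and the lowest p of each other treatment. From the other lists, the extremes in CTD and the called regulators and markers were named (at most 4 markers a list, except the red cell list, whose 2 further calls were named after their values were seen). Promoter windows are the first listed for each symbol in RefSeq (GRCr8). Same-numbered rats of different groups did not deviate together (median correlation of deviations 0.03 over 78 pairs). The result for 1 marker list is not reported here.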

Additional observations from a re-analysis of the deposited data

Results flagged for a closer look

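A rat far from the rest of its group was looked for in 144 sets of values, each 1 gene or the mean over the 54 genes in 1 group. Of these sets, 11 were marked. For independent, normally distributed values the rule would mark about 1 in 20, and whether these values meet that condition was not tested. THI + CTD rat 4 was lowest in its group for the mean log2 CPM of the 54 genes (0.22), Top2a (4.53 CPM), Kif20a (1.87 CPM), Smc4 (10.9 CPM) and Prc1 (1.87 CPM). Control rat 5 was highest for Kif20a (1.60 CPM) and Prc1 (1.94 CPM). In the IMZ group, rat 3 was highest for Prc1 (4.44 CPM) and rat 2 lowest for Tpx2 (3.04 CPM). THI rat 3 was lowest for Aurkb (0.028 CPM), and IMZ + CTD rat 1 was lowest for Plk1 (0.95 CPM). These values share rats and genes that vary together. Groups of 3 rats, such as CTD with its high rat 1, were not examined in this way. The change differed between compounds in a test of the difference itself, for 51 genes between CTD and THI and for 16 genes between CTD and IMZ.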

How the results depend on the processing

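Under all alternatives run, the median log2 fold change of the 54 genes was above 0 in IMZ (0.91 to 1.38), CTD (2.07 to 3.01), THI + IMZ (0.89 to 1.97), THI + CTD (1.76 to 2.12) and IMZ + CTD (1.80 to 2.32), and around 0 in THI (-0.26 to 0.15). Counts of calls depended more on the processing. In IMZ, DESeq2 called 6 and a fit of only the 2 groups called 12 genes. In THI + IMZ, 16 were called with only the 2 groups, and leaving out each rat gave 1 to 39. The leave-one-out range was 44 to 54 in CTD, 33 to 49 in THI + CTD, 20 to 46 in IMZ + CTD, 27 to 53 for CTD against THI and 1 to 24 for CTD against IMZ, where the newer quasi-likelihood method gave 28 and DESeq2 gave 25. DESeq2 called 1 gene for IMZ against THI and 1 for THI + IMZ against the weighted sum. The rats share only a number across groups, and with that number as a replicate block 0 genes were called in THI + IMZ, 17 in THI + CTD and 18 in IMZ + CTD, while CTD kept 54 calls. Replicate numbers 5 to 8 occur only in the controls. In the block fit these controls therefore have terms of their own and do not inform the comparisons. How far this changed the counts was not tested. For the other alternatives that did not leave out samples, the cause was not tested. Against the controls, some estimates as large as 3.81-fold (Bub1b in THI + IMZ) were not called. The treated groups held 3 or 4 rats and counts were low, and the part of either in the missing calls was not tested.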
